A study of Canis lupus familiaris with 28 samples.

Results

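Histiocytic sarcoma (HS) is a cancer of macrophages and dendritic cells. In dogs it can arise in the tissue of a limb, often beside a joint, or in internal organs such as the lung, liver and spleen. The comparison described here set the 2 HS tumors that the labels place on a limb, 1 from a leg mass and 1 from a shoulder, against the 10 HS tumors taken from the lung (5), liver (3) and spleen (2). Tumors labelled hemophagocytic HS (HHS) and those labelled only as thoracic were left out of the comparison, so it covers 12 of the 28 samples of the series.

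All 12 tumors came from Bernese Mountain Dogs (BMDs), with 1 library each. Their column labels share the prefix HVTWLDSXX, as do those of the normal organs but not of the blood samples. The labels do not say what this prefix stands for. The labels name no treatment, age or mutation status for any tumor. The authors report activating *PTPN11* mutations in most tumors of the series, and that status was not used here. With 2 limb tumors, from different places on the limb, the limb group is small, and its p-values rest mainly on the spread among the 10 visceral tumors. The level in each library is therefore given as CPM, counts scaled to a library of 1e6, before each test. In bulk tissue, fewer cells of a type and less RNA per cell cannot be told apart. Normal liver, lung and spleen (1 German Shepherd sample each) and blood of 3 BMDs give the background. The authors excluded a control sample from their own comparison as an outlier, while no control was left out here.

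The limb libraries held 141632958 and 145788760 counts, and the visceral libraries 99701394 to 171815073 with a median of 140507255. The limb totals and the shares of counts in the 10 highest genes (8.44% and 11.9%, against 6.57% to 20.04%) lay within the visceral range. A two-sided exact permutation test gave p = 0.848 for each, and 0.848 after Benjamini-Hochberg adjustment over 4 library measures, where the smallest p possible is 0.0303. The tissue labels were checked with defining markers. *LYZ*, the lysozyme gene of macrophages, was at 1492 and 2344 CPM in the leg mass and shoulder tumors and at 248 to 2878 CPM in the visceral tumors. It was at 950, 341 and 125 CPM in normal spleen, lung and liver and at 7839 to 12747 CPM in blood, so its level was not particular to the tumors. *PLG*, which encodes the plasminogen made by hepatocytes, was at 14150 CPM in normal liver but at 69.5, 0.892 and 0.0418 CPM in the 3 liver tumors. *AGER*, a marker of alveolar type I cells, was at 1640.3 CPM in normal lung and at 3.67 to 49.96 CPM in the lung tumors, but at 3.81 to 8.81 CPM in the liver and spleen tumors and 3.23 and 12.7 CPM in the limb tumors. Neither organ marker separated the tumors of its organ from the others. *MYOT* and *TRDN*, genes of skeletal muscle, were at 1.44 CPM or less in the limb tumors, and *MYOT* was at 0.983 to 5.49 CPM in the visceral tumors. These genes do not stand for all muscle genes. *TXLNB* was at 13.9 CPM in the shoulder tumor, above all visceral tumors (up to 12.3 CPM), but at 1.14 CPM in the leg mass tumor. The summed level of the skeletal muscle list was 47.8 CPM in the leg mass tumor and 232 CPM in the shoulder tumor. Both lay within the visceral range of 41.3 to 368.5 CPM.

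Over 20050 genes tested, log2 fold changes (log2FC, limb minus visceral) came from edgeR's quasi-likelihood test, and the calls needed a change of over 1.5 in either direction together with an adjusted p below 0.05. edgeR called 2 genes, both higher in the limb tumors and 0.00998% of those tested, and 0 lower. A total of 949 genes (4.73%) had an unadjusted p under 0.05, 3948 (19.7%) had a log2FC past 1.5 in either direction, and 8220 (41%) had a positive one. DESeq2, run on the same counts, called 247 genes (1.23%), of which 80 were higher (0.399%) and 167 lower (0.833%) in the limb tumors, and limma-voom called 23 (0.115%), all of them higher. By its default, DESeq2 replaces outlying counts in larger groups, here the visceral tumors but not the limb tumors. Its log2FC and p-values may thus leave out a visceral tumor that was far from the others. How far this changed its calls was not tested. Of the 247 genes called by DESeq2, 110 (44.5%) had both limb libraries outside the visceral range, and in 78 a single limb library held over 90% of the summed limb level. The smallest adjusted p among the 1009 tested genes with a name was 0.387 by edgeR, so every named gene below is described as not having passed that test.

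The pair of genes called by edgeR have no name in the tables used here. ENSCAFG00000009666 was at 7.43 CPM in the leg mass tumor and 105.9 CPM in the shoulder tumor, against 0.0679 to 1.11 CPM (median 0.337) in the visceral tumors. Its log2FC was 7.06 (SE 0.84, edgeR adjusted p = 0.0157). ENSCAFG00000017138 was at 76.5 CPM in the leg mass tumor and 4.01 CPM in the shoulder tumor, against 0.139 to 1.67 CPM (median 0.563) in the visceral tumors, with a log2FC of 5.89 (SE 0.76, adjusted p = 0.0198). In each of these genes the limb libraries lay above all 10 visceral libraries, but 1 limb tumor was far higher than the other. It was the shoulder tumor for ENSCAFG00000009666 and the leg mass tumor for ENSCAFG00000017138. Outside the comparison, ENSCAFG00000017138 was at 14.2 CPM in normal spleen, above the shoulder tumor, and at 3.84 CPM in thoracic HS tumor 1, near it. ENSCAFG00000009666 was at 1.14 CPM or less in the thoracic, HHS and normal libraries. Without the shoulder tumor the adjusted p of ENSCAFG00000009666 was 0.552, and without the leg mass tumor that of ENSCAFG00000017138 was 0.937. Leaving out lung tumor 1, lung tumor 2 or liver tumor 3 left 0 genes called by edgeR, with adjusted p-values of 0.0507 to 0.0638 for this pair. The call of ENSCAFG00000017138 was also lost without lung tumor 3 (adjusted p = 0.0614) or lung tumor 5 (0.0724) and in limma-voom (0.0593). The 2 identifiers fell outside the rule for named genes and were chosen after their values were seen.

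The question of how alike the limb tumors are was addressed with distances between libraries in log2 CPM over all genes tested. The distance between the leg mass and shoulder tumors was 230. Distances from a limb to a visceral tumor were 243 to 311 (20 pairs, median 261), those within the lung tumors 211 to 302 (10 pairs, median 251), and that between the spleen tumors 339. Among all 24 tumor and normal libraries, each limb tumor had the other as its nearest library. The next nearest to each of them was HHS tumor 2, at 239 from the leg mass tumor and 233 from the shoulder tumor. The limb tumors still differed by more than 1.5 log2 CPM in 4805 genes (24%), against 24.7% to 43.6% of genes for limb to visceral pairs.

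**Figure D1:**
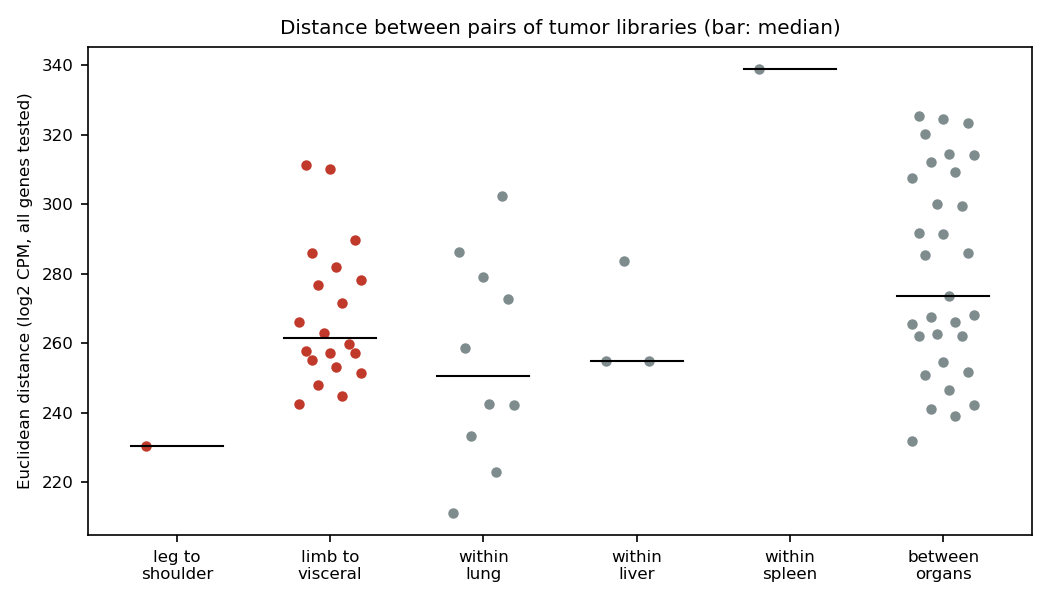
Euclidean distance in log2 CPM (y axis) for every pair of the 12 tumor libraries, grouped by kind of pair (x axis); each point is 1 pair and each bar a median. The leg to shoulder pair, at 230, lies below all 20 limb to visceral pairs, which start at 243, while the closest lung pairs lie lower still, from 211.

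The matrix of connective tissue is laid down by fibroblasts and holds fibrillar collagens, tenascins and the proteins that tie them together. All 19 genes of the connective tissue list were tested, none was called, and their median log2FC was 0.59, beside -0.17 for all genes tested. Unadjusted p-values under 0.05 were found in 4 of the 19 with a positive log2FC (2.2% of all genes) and in 1 with a negative one (2.53% of all genes). *TNXB*, which encodes tenascin-X, was at 78.9 CPM in the leg mass tumor and 42.9 CPM in the shoulder tumor, against 0.611 to 18.2 CPM (median 2.42) in the visceral tumors. The limb libraries lay above all 10 visceral libraries, and the log2FC was 3.60 (SE 0.83, edgeR adjusted p = 0.387, DESeq2 adjusted p = 0.000980, limma-voom adjusted p = 0.00999). *PI16*, a gene known from fibroblasts around vessels, was at 164 and 51.9 CPM in the limb tumors, while the visceral tumors had a median of 2.05 CPM and reached 56.7 CPM in lung tumor 1, so the groups overlapped at that library. Its log2FC was 3.64 by edgeR (SE 1.32, adjusted p = 0.919), 4.73 by DESeq2 (adjusted p = 0.00949) and 5.49 by limma-voom (adjusted p = 0.0156).

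*COL14A1*, a collagen that binds to the surface of fibrils, was at 98.8 CPM in the leg mass tumor and 26.6 CPM in the shoulder tumor, against 0.293 to 46.2 CPM in the visceral tumors (log2FC 2.60, SE 1.13, edgeR adjusted p = 0.919). *TGFBI*, which encodes a matrix adaptor protein, was at 932 and 455 CPM against 17.2 to 482 CPM, the highest visceral value being that of spleen tumor 2 (log2FC 1.99, SE 0.79, adjusted p = 0.919). In each of *TNXB*, *PI16*, *COL14A1* and *TGFBI* the leg mass tumor stood above the shoulder tumor. *WISP1*, a secreted protein of the CCN family, went the other way at 2.65 and 0.370 CPM against 0.440 to 43.3 CPM (log2FC -3.28, SE 1.49), and so did *COL23A1*, a membrane collagen, with a log2FC of -5.09 (SE 2.83). *COL23A1* had 4 counts in each limb tumor, 6.05 CPM in spleen tumor 2 and 1.53 CPM or less in the other visceral tumors, 3 of which lay below the limb tumors. Against the liver tumors its log2FC was 0.07, and -2.17 by limma-voom. Without the leg mass tumor the median log2FC of the list was -0.14. Over the list, the leg mass tumor was higher than the shoulder tumor by a median of 1.48 log2 CPM. The summed level of the 19 genes was 1921 CPM in the leg mass tumor, above all visceral tumors (368 to 1310 CPM), and 963 CPM in the shoulder tumor, which 3 visceral tumors exceeded. Without *TGFBI*, the gene with the highest counts of the list, the sums were 989 and 507 CPM against 237 to 947 CPM. Outside the tumors the summed level was 681 to 1717 CPM in the normal organs and 1430 to 3022 CPM in blood. In blood *TGFBI* alone was at 1245 to 2765 CPM, so those sums came mostly from that gene. *TNXB* was at 44.3, 11.2 and 21.2 CPM in normal lung, liver and spleen, and at 0.248 to 0.922 CPM in blood. The part of normal connective tissue in these values was not tested.

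**Figure D2:**
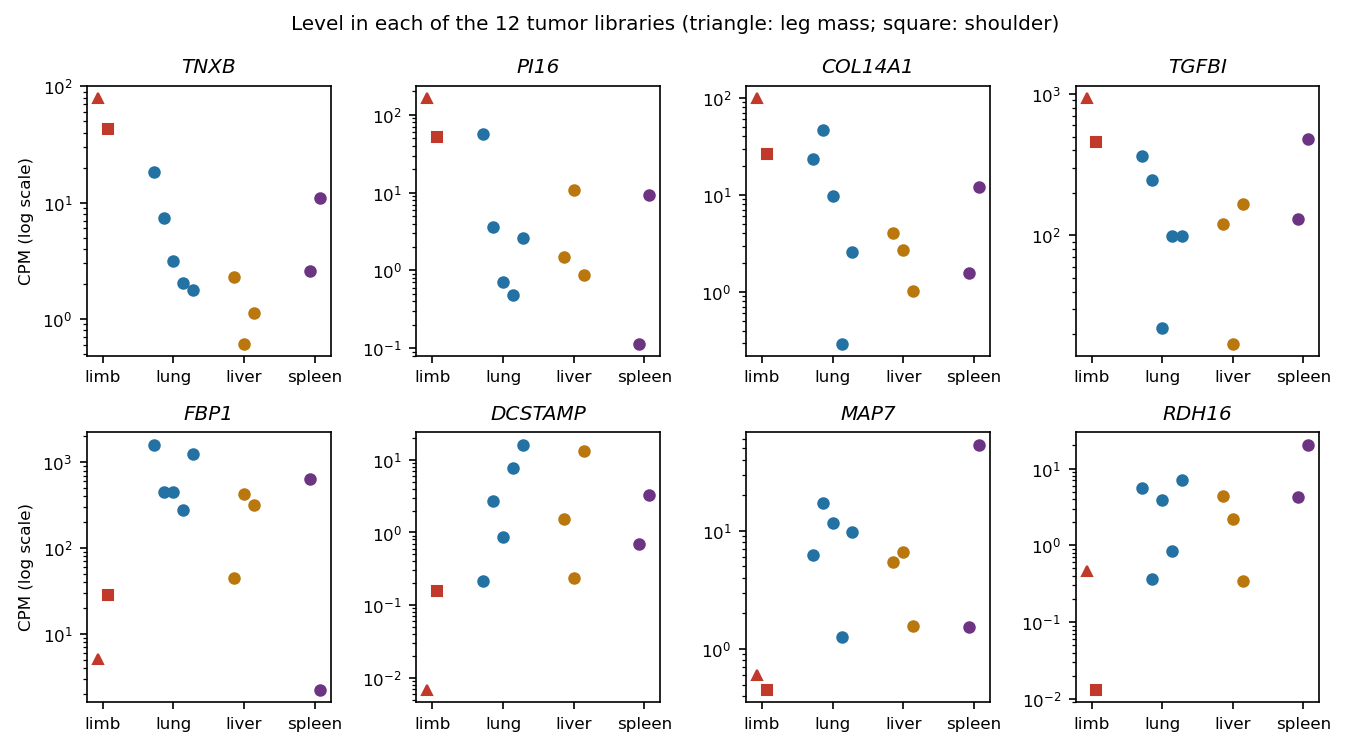
Level in CPM on a log axis (y) of 8 genes in each tumor library, by site (x); triangles are the leg mass tumor, squares the shoulder tumor and circles the visceral tumors. *TNXB* lies above all visceral libraries in the limb tumors, *PI16*, *COL14A1* and *TGFBI* overlap with 1 or more visceral libraries, *DCSTAMP* and *MAP7* lie below all of them, and *FBP1* and *RDH16* are low in the limb tumors but overlap.

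TCF21 is a transcription factor of the mesenchyme of internal organs, including lung and spleen, and PITX1 one of the hind limb. *TCF21* had 0 counts in both limb tumors, a limit of 0.0202 CPM in the leg mass tumor and 0.0195 CPM in the shoulder tumor (3 counts, for counting error only). It had counts in all 10 visceral tumors, at 0.0615, 1.05, 0.742, 0.0308 and 2.99 CPM in lung tumors 1 to 5, 0.795, 2.004 and 0.0558 CPM in liver tumors 1 to 3, and 3.51 and 36.3 CPM in spleen tumors 1 and 2. The visceral median of 0.922 CPM was at least 45.6-fold higher than the limit in the limb tumors, and the lowest visceral tumor was near that limit. Normal lung was at 72.4 CPM, normal spleen at 20.4 CPM, normal liver at 1.81 CPM and blood at 0 counts. Outside the comparison, the thoracic HS tumors were at 0.871, 0 and 0.368 CPM and the HHS tumors at 0.396, 1.80 and 0.322 CPM. The edgeR adjusted p was 0.919 and the DESeq2 adjusted p 0.000197. The gene was high in normal lung and spleen, and the part of normal organ tissue in the tumor values was not tested. *PITX1* had 15 counts (0.101 CPM) in the leg mass tumor and 0 in the shoulder tumor, 0.516 CPM in lung tumor 5, 0.170 CPM in spleen tumor 2 and 0 in the other visceral tumors, so limb and visceral tumors overlapped.

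The regional patterning list held 17 genes of body plan and organ identity, 15 of which were tested, with a median log2FC of -0.21 and 0 called. *OSR2*, an odd-skipped transcription factor of limb and jaw mesenchyme, was at 2.37 CPM in the leg mass tumor and 0.513 CPM in the shoulder tumor, against 0.0558 to 2.38 CPM (median 0.160) in the visceral tumors, the highest being lung tumor 1. Its log2FC was 1.92 by edgeR (SE 1.14, adjusted p = 0.919) and 3.098 by DESeq2 (adjusted p = 0.00261), and by edgeR 3.17 without lung tumor 1 and 0.43 without the leg mass tumor. The Hedgehog receptor component *SMO* had the second highest log2FC of the list, 0.69 (SE 0.92), and *VGLL2* the second lowest after *TCF21*, with 0 counts in the leg mass tumor, 0.0065 CPM in the shoulder tumor and at most 0.100 CPM in the visceral tumors.

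**Figure D3:**
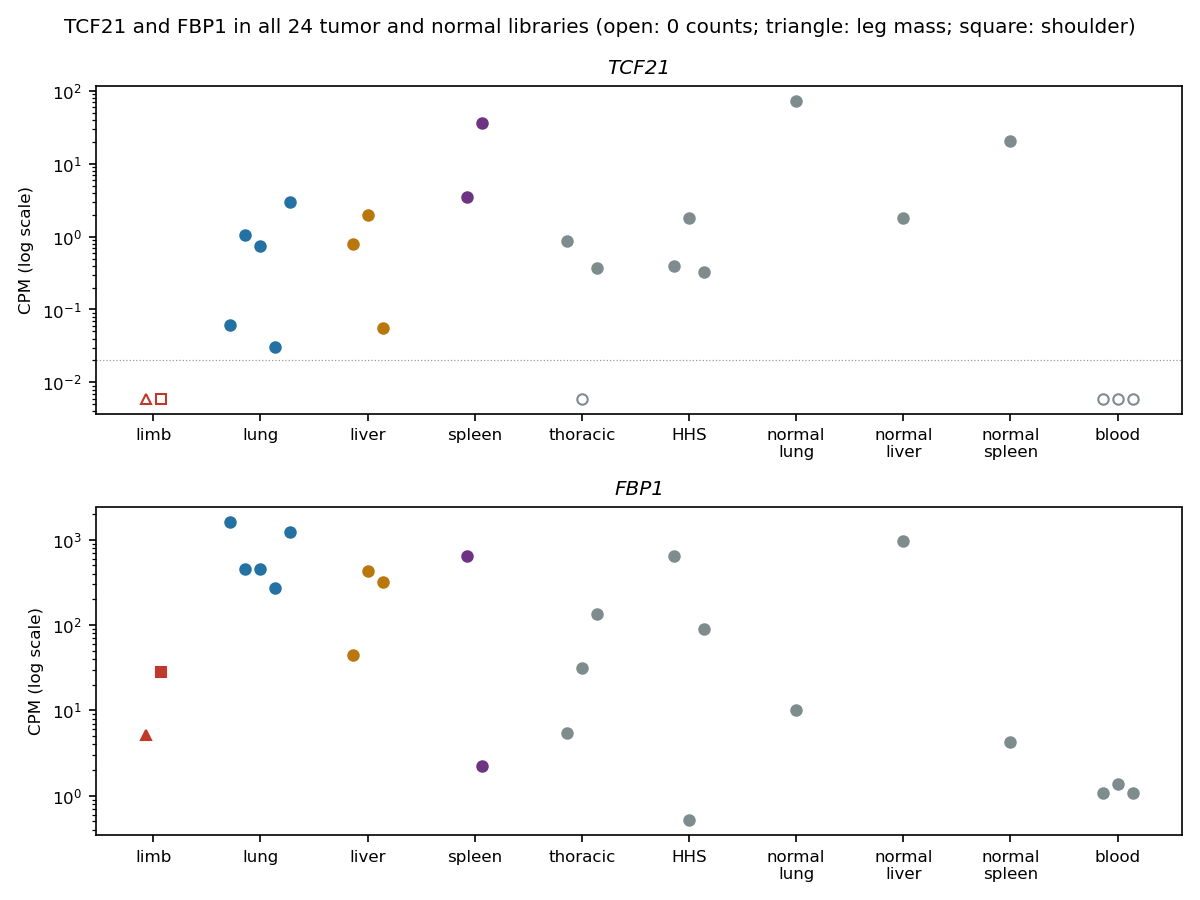
CPM on a log axis (y) of *TCF21* and *FBP1* in all 24 tumor and normal libraries by group (x); open markers at the bottom are libraries with 0 counts and the dotted line is near the level of 3 counts in the limb libraries. *TCF21* had 0 counts in the limb tumors, thoracic HS tumor 2 and blood, and *FBP1* was at 5.13 and 28.2 CPM in the limb tumors, below 9 of the 10 visceral tumors.

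*FBP1* encodes fructose-1,6-bisphosphatase, an enzyme of gluconeogenesis in liver that macrophages also express. It was at 5.13 CPM in the leg mass tumor and 28.2 CPM in the shoulder tumor. In the visceral tumors it was at 1601, 451, 455, 275 and 1240.4 CPM (lung 1 to 5), 44.9, 432 and 318 CPM (liver 1 to 3) and 643 and 2.22 CPM (spleen 1 and 2), so 9 of 10 visceral tumors were above both limb tumors and spleen tumor 2 was below both. The log2FC was -5.03 (SE 1.81, edgeR adjusted p = 0.919, DESeq2 adjusted p = 0.00548). Normal lung was at 10.2 CPM, normal spleen at 4.21 CPM and normal liver at 961 CPM. The thoracic HS tumors were at 5.41, 31.4 and 135.8 CPM and the HHS tumors at 642, 0.518 and 90.1 CPM. The hepatocyte markers *PLG* and *LECT2* were at 0.615 CPM or less in all 5 lung and both spleen tumors. Other hepatocyte genes were higher there. *CDO1* was at 0.979 to 43.7 CPM in the lung tumors and at 2.05 and 4.47 CPM in the spleen tumors. *RDH16* was at 0.363 to 7.16 CPM in the lung tumors and at 4.32 and 20.4 CPM in the spleen tumors. The cell type that the *FBP1* counts came from was not tested.

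The other genes of the hepatocyte list were mostly lower in the limb tumors too. Of 18 genes 16 were tested, and 15 of the 16 had a negative log2FC, while 41% of all genes tested had a positive one. Of the 15, *FBP1*, *RDH16* and *HSD17B6* had an unadjusted edgeR p under 0.05 (3 genes, background 2.53%). None was called, and the median log2FC was -2.21. *RDH16*, a retinol dehydrogenase, was at 0.465 and 0.0130 CPM (the latter 2 counts) in the limb tumors and at 0.342 to 20.4 CPM in the visceral tumors (log2FC -4.37, SE 1.80). *HSD17B6*, a steroid and retinol dehydrogenase, was at 1.35 and 1.16 CPM against 0.999 to 15.4 CPM (log2FC -2.33, SE 0.90). At the ends of the list stood *PLG* (0 and 1 counts in the limb tumors) and *DPYS* (log2FC -5.79, SE 3.41), both highest in liver tumor 1, and *APOM* (-0.06, SE 0.66) and *TMPRSS6* (0.33, SE 0.80). The summed level of the list was 21.3 and 48.6 CPM in the limb tumors, below all visceral tumors (55.5 to 1660 CPM). It did not follow the organ, with a median of 513 CPM in the lung tumors and 333 CPM in the liver tumors. Normal liver was at 34747 CPM. HHS tumor 2, outside the comparison, was at 24.6 CPM. Without *FBP1* the sums were 16.1 and 20.5 CPM against 15.8 to 203 CPM, so the groups then overlapped. Against the lung, liver and spleen tumors taken alone, the median log2FC of the list was -1.73, -2.67 and -1.15.

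DCSTAMP is a membrane protein needed for the fusion of macrophages and osteoclast precursors into giant cells. *DCSTAMP* was at 0.00675 CPM (1 count) in the leg mass tumor and 0.156 CPM in the shoulder tumor, below all 10 visceral tumors (0.215 to 16.1 CPM, median 2.13). Its log2FC was -5.82 (SE 2.16, edgeR adjusted p = 0.919, DESeq2 adjusted p = 0.00369). It was at 0.199 CPM in normal lung, 0.0170 CPM in normal liver and 0.348 CPM in normal spleen, but at 9.19 to 11.9 CPM in blood. The thoracic HS tumors were at 0.347, 0.602 and 0.209 CPM, the last just below the lowest visceral tumor, and the HHS tumors at 2.33, 4.94 and 41.2 CPM. The other 3 genes of the osteoclast list overlapped between the groups. *TNFRSF11B*, the decoy receptor osteoprotegerin, had a log2FC of -0.77 (SE 1.29), *TNFRSF11A*, the receptor RANK, 0.04 (SE 0.85), and *NFATC1*, the transcription factor downstream of it, 0.05 (SE 0.67).

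Among the 1009 tested genes with a name, 22 (2.18%) had both limb libraries outside the visceral range, 9 above and 13 below, beside 2.92% of all genes tested (1.55% above and 1.37% below). Those with a mean of at least 1 log2 CPM included 6 above and 8 below. *MAP7*, which encodes a microtubule-associated protein, was at 0.6004 and 0.448 CPM in the limb tumors and at 1.26 to 53.6 CPM (median 6.43) in the visceral tumors (log2FC -4.45, SE 1.56, edgeR adjusted p = 0.919, DESeq2 adjusted p = 0.00678). *CTDSP2*, a small phosphatase of the RNA polymerase II tail, was at 23.2 and 34.5 CPM against 5.08 to 19.0 CPM (log2FC 1.36, SE 0.41, adjusted p = 0.843). *ZC3H12D*, a regulator of immune transcripts, was at 5.59 and 9.34 CPM against 1.09 to 5.59 CPM, the leg mass tumor and liver tumor 3 being equal to 3 digits (log2FC 1.505, SE 0.57). *TOB2* (log2FC 1.51, SE 0.73), *PHF1* (0.83, SE 0.33) and *SEC11C* (0.70, SE 0.31) made up the rest of those above, with adjusted p-values of 0.919.

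The remaining genes below the visceral range at that level were *MRPL13*, a mitochondrial ribosomal protein, *TBC1D31*, *C8orf76*, *IFT27*, a subunit of the ciliary transport complex, *NUDCD1*, *DERL1*, an exit factor of the endoplasmic reticulum, and *HSPA1L*, a heat shock protein. *MRPL13* was at 26.9 and 29.4 CPM in the limb tumors against 41.6 to 89.2 CPM (median 57.7) in the visceral tumors, with a log2FC of -1.08 (SE 0.36, edgeR adjusted p = 0.919, DESeq2 adjusted p = 0.0667). *NUDCD1* was at 28.1 and 29.9 CPM against 34.2 to 64.05 CPM (log2FC -0.75, SE 0.34) and *TBC1D31* at 12.8 and 11.3 CPM against 14.9 to 33.7 CPM (log2FC -1.01, SE 0.40). For *C8orf76* the log2FC was -1.35 (SE 0.57), for *IFT27* -1.05 (SE 0.45), for *HSPA1L* -0.92 (SE 0.55) and for *DERL1* -0.64 (SE 0.41). In each of these 7 genes the limb tumors differed from each other by 0.64 log2 CPM or less.

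Antigen presentation uses the MHC class I and II proteins, in dogs named DLA, and the transporters and chaperones that load them with peptides. All 15 genes of this list were tested, 13 had a positive log2FC, 4 of them with an unadjusted p under 0.05 (background 2.2%), none was called, and the median log2FC was 1.12. *DLA-DRA*, an MHC class II chain, was at 5465 CPM in the leg mass tumor and 20308 CPM in the shoulder tumor, against 514 to 8023 CPM (median 4212) in the visceral tumors (log2FC 1.59, SE 0.71, edgeR adjusted p = 0.919). *DLA88*, an MHC class I gene, was at 870 and 3037 CPM against 60.8 to 1947 CPM (log2FC 1.83, SE 0.80). *DLA-DMA*, which helps to load class II molecules, was at 459 and 1224 CPM against 113 to 563 CPM (log2FC 1.23, SE 0.53), and *TAP1*, a subunit of the peptide transporter, at 488 and 737 CPM against 178 to 634 CPM (log2FC 0.97, SE 0.43). In all 4 of these genes the shoulder tumor was above every visceral tumor, while the leg mass tumor lay within the visceral range.

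The gene paired with the human symbol *HLA-C* was at 159 CPM in the shoulder tumor, 4.38 CPM in the leg mass tumor, 128 CPM in spleen tumor 2 and 0.916 to 3.75 CPM in the other visceral tumors. Its log2FC was the highest of the list, 2.49 by edgeR (SE 1.60, adjusted p = 0.919), but 5.32 by DESeq2 (adjusted p = 1.23e-06). By edgeR it was 5.38 without spleen tumor 2 and -1.74 without the shoulder tumor. *DLA-64* (log2FC -0.26, SE 0.73) and *DLA-DOA* (-0.24, SE 1.25) stood at the low end. The summed level of the list was 19272 CPM in the leg mass tumor and 56543 CPM in the shoulder tumor, against 3891 to 24325 CPM in the visceral tumors. Outside the comparison, thoracic HS tumor 2 was at 50243 CPM, the other thoracic tumors at 15296 and 9727 CPM and the HHS tumors at 1565 to 20332 CPM. Without the shoulder tumor the median log2FC of the list was 0.27. The median over the list of the level relative to the visceral mean was 0.73 in the leg mass tumor and 1.94 in the shoulder tumor, against -1.16 to 0.62 in the visceral tumors. Some MHC genes, such as those of class I, are close copies of each other. Reads may be shared or lost among such copies, so the values of those single members are uncertain.

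**Figure D4:**
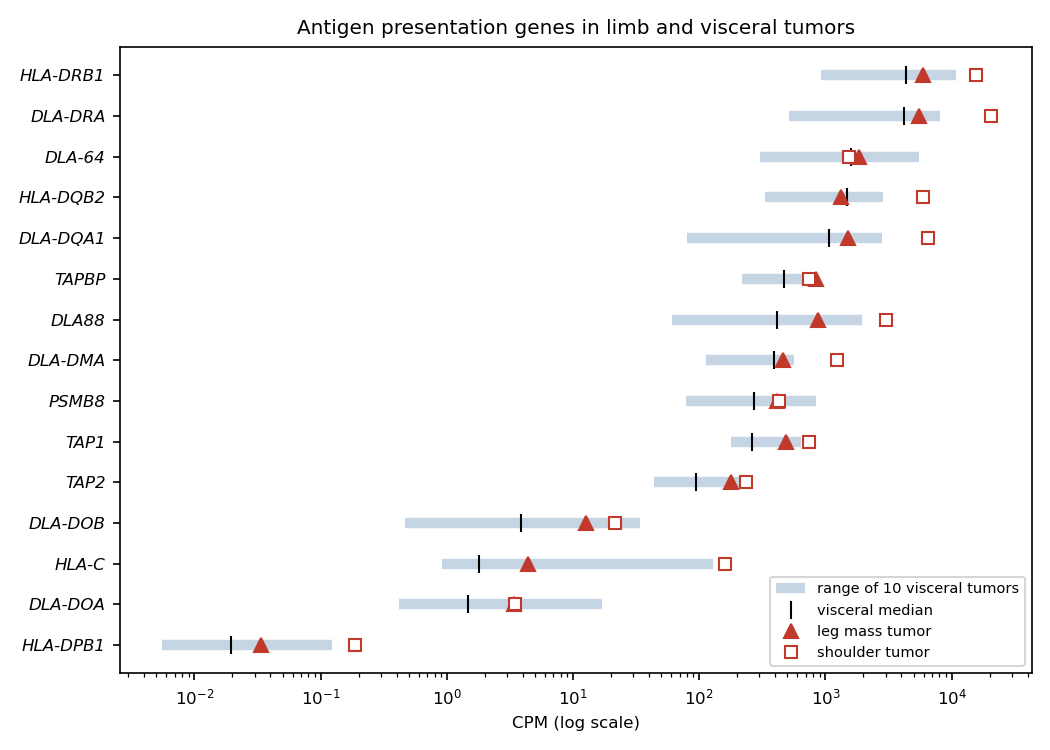
CPM on a log axis (x) of the 15 antigen presentation genes (y); bars span the 10 visceral tumors, ticks are their median, triangles the leg mass tumor and squares the shoulder tumor. *DLA-DRA* reached 20308 CPM in the shoulder tumor and 8023 CPM in the highest visceral tumor.

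Lymphocytes, endothelium and other cells of the tumor bed were described with the same kind of list. Of the lymphocyte genes, 10 of 11 were tested, 8 had a positive log2FC, the median was 0.56 and none was called. Their summed level was 131 and 145 CPM in the limb tumors and 77.9 to 344 CPM in the visceral tumors, the highest being liver tumor 3. *IL2RB*, an interleukin receptor chain of T and NK cells, was at 58.6 and 47.9 CPM against 2.23 to 161 CPM. The T cell factor *TCF7* had a log2FC of 1.40 (SE 1.43), and *TAGAP* (-0.52, SE 0.58) and *GRAP2* (-0.22, SE 0.66) were the lowest. Of the 7 endothelial genes none was called and the median log2FC was 0.27. *FLT4*, the receptor VEGFR3 of lymphatic endothelium, was at 105.6 CPM in the shoulder tumor but 4.94 CPM in the leg mass tumor, against 1.60 to 37.3 CPM in the visceral tumors (log2FC 2.19, SE 0.82, adjusted p = 0.919). The other ends of that list were *PDGFB* (0.37, SE 0.71), *PODXL* (-0.22, SE 0.63) and *ANGPT1* (-0.99, SE 1.02). Without the shoulder tumor the median of the endothelial list was -0.24, and without liver tumor 3 that of the lymphocyte list was 1.42.

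The histiocyte and phagocyte list, which describes the tumor's own lineage, had a median log2FC of 0.31 over 19 of 20 genes, 13 of them positive and none called. *MMP19* (0.80, SE 0.91) and *CPM* (0.80, SE 0.97) were at its upper end, and *CD63* (-0.88, SE 0.62) and *LTC4S* (-1.60, SE 1.25) at its lower end. Without the shoulder tumor its median was -0.16. The cell cycle list had a negative log2FC in 22 of 28 genes, with a median of -0.41 and none called. Its lowest member, *FBXO43*, an inhibitor of the anaphase-promoting complex, was at 0.0472 and 0.00650 CPM (7 counts and 1 count) against 0.0527 to 0.780 CPM (log2FC -3.09, SE 1.38), followed by *RPA3* (-0.91, SE 0.66), and the highest were *MDM2* (0.31, SE 0.43) and *CENPM* (0.50, SE 0.52). The summed cell cycle level was 1179 and 1061 CPM in the limb tumors and 979 to 1673 CPM in the visceral tumors.

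For stress and immediate early genes the median log2FC was -0.49 over 10 genes. Both identifiers of the heat shock gene *HSPA1B*, which are near-identical copies, were lowest (-1.80, SE 0.93 and -1.74, SE 0.84), and *PIM1* (0.47, SE 0.42) and *IER3* (0.57, SE 1.26) highest. The lung epithelium list had a median of -0.96 over 9 genes, and -0.41 with *ROS1* taken at its bound, since *ROS1* had 0 counts in both limb tumors and in 7 visceral tumors. Without the lung tumors the median turned to 0.43, and it was 0.67 against liver and 0.05 against spleen tumors. *TSPAN8* (-4.20, SE 2.82) was highest in lung tumors 2, 3 and 5 (61.1, 66.8 and 15.8 CPM), and *MAL2* (1.13, SE 1.58) and *GRHL2* (1.47, SE 1.64) were highest. The skeletal muscle list had a median of -0.40 over 9 genes, between *KLHL38* (-3.06, SE 2.01), *FBXO32* (-1.60, SE 0.80), *CPT1B* (0.55, SE 0.63) and *TXLNB* (1.30, SE 1.31). The skin, melanocyte and Schwann cell list had a median of 0.33 over 9 genes, between *CDSN* (0 and 1 counts in the limb tumors), *MLANA* (-1.67, SE 1.95), *CDH19* (2.07, SE 2.05) and *SOX10* (2.28, SE 1.91). The red cell and platelet list kept 2 of 4 genes, *LY6G6F* (-3.81, SE 3.09) and *MPIG6B* (0.09, SE 1.00). None of these members was called or had an unadjusted p under 0.05.

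**Figure D5:**
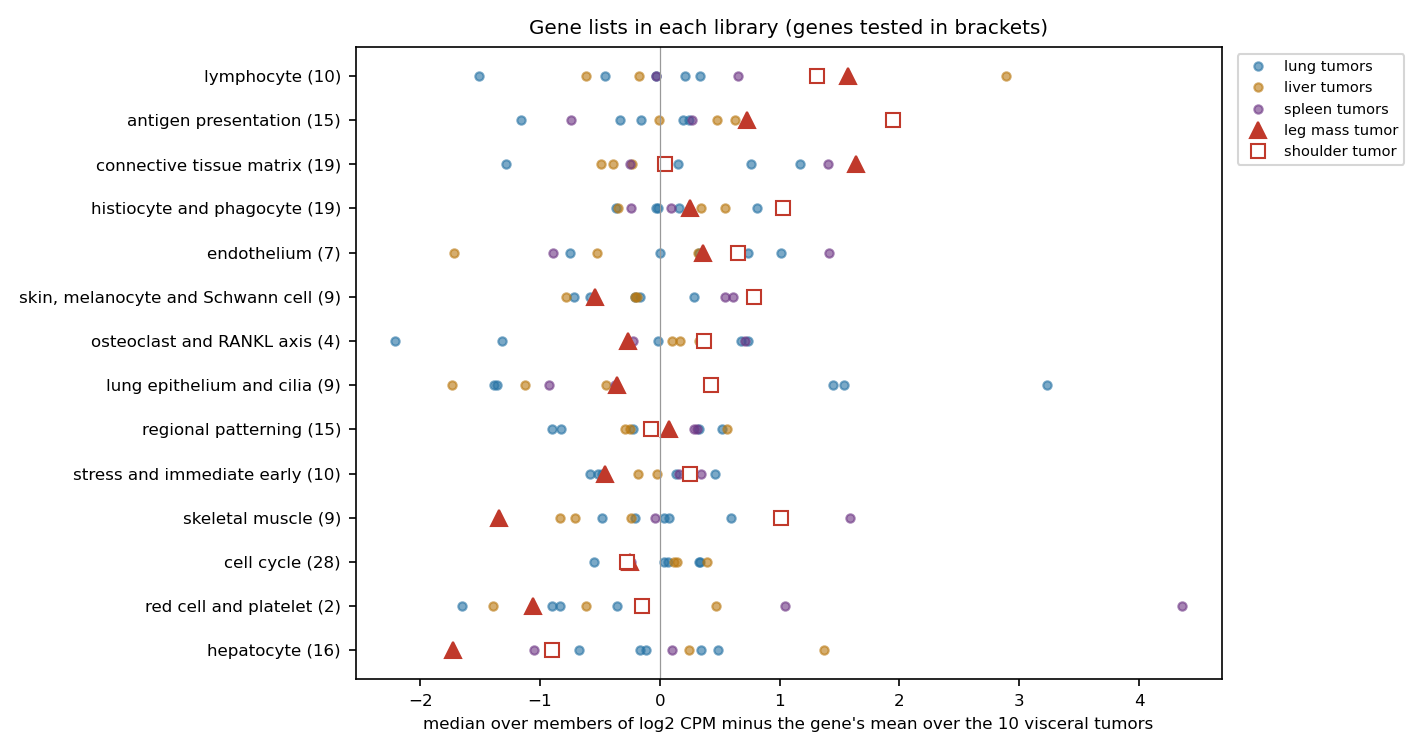
Median over the tested members of each gene list (y axis, number tested in brackets) of log2 CPM minus the gene's mean over the 10 visceral tumors (x axis); triangles are the leg mass tumor, open squares the shoulder tumor and circles the visceral tumors. Only for antigen presentation did both limb tumors (0.73 and 1.94) lie above all visceral tumors (up to 0.62), and for hepatocyte genes the leg mass tumor (-1.72) lay below them and the shoulder tumor (-0.90) did not.

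Against each organ taken alone, in one model of the 4 sites, edgeR called 0 genes against the lung tumors, 0 against the liver tumors and 0 against the spleen tumors (0% each). Unadjusted p-values under 0.05 were found in 5.87%, 4.58% and 6.58% of genes by edgeR. These 3 comparisons share the 2 limb libraries. For *TNXB* the log2FC was 3.23 against lung, 5.51 against liver and 3.17 against spleen tumors, and for *MAP7* -4.14, -3.12 and -5.72. *MRPL13* was more even, at -1.11, -1.01 and -1.12. The antigen presentation list had a median of 1.42 against lung, 0.62 against liver and 1.20 against spleen tumors.

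DESeq2 called 15 genes with a name, of which *TNXB*, *PI16*, *OSR2*, *TCF21*, *MAP7*, *FBP1*, *RDH16*, *DCSTAMP* and *HLA-C* are described above. The others were chosen after their values were seen. *MEGF10*, an engulfment receptor, was at 0.0944 and 0.110 CPM in the limb tumors and at 0 to 117.6 CPM (median 9.07) in the visceral tumors (DESeq2 adjusted p = 0.00568). *KCNN2*, a potassium channel, had 3 and 1 counts (0.0202 and 0.0065 CPM) in the limb tumors and 0.0055 to 14.5 CPM (median 0.802) in the visceral tumors (pooled visceral to limb ratio 168, 95% counting interval 65.7 to 618; adjusted p = 0.00934). The groups overlapped, since lung tumors 2, 4 and 5 lay below the leg mass tumor, and lung tumor 1, liver tumor 1 and liver tumor 3 were the highest. *SNX31*, a sorting nexin, was at 0.189 and 0 CPM against 0.0848 to 3.29 CPM (adjusted p = 0.0321). *MEST*, an imprinted gene of mesoderm, was at 29.9 CPM in the leg mass tumor but 0.701 CPM in the shoulder tumor, against 0.0976 to 14.5 CPM, with a log2FC of 2.98 by edgeR and 4.72 by DESeq2 (adjusted p = 0.00260). *BTN3A3* and *ROS1* had 0 counts in both limb tumors and in 5 and 7 of the 10 visceral tumors, with DESeq2 adjusted p-values of 1.23e-06 and 8.03e-05. *BTN3A3* was at 121.6 CPM in spleen tumor 2 and at 2.48 CPM or less in the other visceral tumors, and *ROS1* was at 1.19 to 3.29 CPM in 3 lung tumors. None of these 15 genes passed edgeR's test on the 12 libraries.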

How the data were processed

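The authors isolated total RNA, depleted ribosomal and globin RNA, trimmed reads with cutadapt 3.7, checked them with FastQC 0.11.9, aligned them to CanFam3.1 with STAR 2.7.10a and counted reads per gene with HTSeq 2.0.0, per the submitters' processing notes. The deposited values are raw counts for 32704 Ensembl identifiers. The annotation release and strand option are not given in the sources used here, so overlapping, antisense and near-identical genes may share reads. The authors' own fold changes were not used, nor was the table of cell lines.

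From the deposited counts, edgeR 4.0.16 in R 4.3.3 was run with filterByExpr, TMM scaling and quasi-likelihood F tests, adjusted by Benjamini-Hochberg over the 20050 genes kept. The SE of a log2FC was its size divided by the square root of the F statistic. CPM used TMM-scaled totals, and log2 CPM a prior count of 2. The TMM factor of normal liver was 0.330, beside 0.786 to 1.20 in the 12 tumors. Its CPM are therefore higher than they would be on unscaled totals. The highest gene of that library held 12.8% of its counts. DESeq2 1.42.0, other size factors, filters, models, adjustments and left-out libraries or organs were alternatives, and voom (limma 3.58.1) was added after the results were seen. Figures used matplotlib 3.10.9. The limit given for 0 counts, 3 counts, was 0.0165 to 0.0379 CPM, for counting error only. Levels printed from 1 or 2 counts lie below it. No pair of the 12 libraries was a duplicate, with a chi-square of at least 1127 per gene between any pair. The scripts were tested on simulated counts.

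Names came from supplementary tables, which pair 1126 identifiers with a dog symbol (1025) or a human homolog (101). These are not a broad sample of the genome. Most of the 961 tested ones with a known chromosome lie on the chromosomes of *LYZ* (262), *SMPDL3A* (249), *CANX* (140), *HLA-DRB1* (140), *MYC* (126) and *TNPO3* (30). All lists and named genes were drawn from this set. Lists of further markers, such as *HOX* genes, had no name at hand and were not analysed here. Named were genes outside the visceral range with a mean of at least 1 log2 CPM, called genes first and then by p up to 12 a direction, the 2 highest and 2 lowest log2FC of each of 14 lists, called members, *TCF21* and *PITX1*, and called identifiers without a name at that mean level. Other genes were chosen after their values were seen. The groups and lists were chosen with earlier results of these data known. The p-values measure the spread between tumor libraries. A RefSeq gene table of another assembly, UU_Cfam_GSD_1.0, was used only to group genes by chromosome. No coordinates or sequences are given.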

Additional observations from a re-analysis of the deposited data

Results flagged for a closer look

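Of 208 sets of 10 visceral or 5 lung libraries examined, one for each gene or summed list, 19 held a library whose gap to its neighbour, as a share of the range in log2 CPM, was above Dixon's 95% critical value, which chance gives in about 1 of 20 sets. Among the 10 visceral tumors, spleen tumor 2 was high for *HLA-C* (0.716), *CDH19* (0.682) and the summed red cell and platelet genes (0.685). Spleen tumor 1 was high for *CPT1B* (0.483), liver tumor 1 for *PLG* (0.510), lung tumor 1 for *OSR2* (0.587) and liver tumor 3 for the summed lymphocyte genes (0.572). Lung tumor 4 was low for *SMO* (0.586), and lung tumor 3 was low for *HLA-DRB1* (0.5003) and for the summed antigen presentation genes (0.574).

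Among the 5 lung tumors, lung tumor 1 was high for *OSR2* (0.727) and *KCNN2* (0.770) and low for *MTFR2* (0.850), and lung tumor 2 was low for *TMPRSS6* (0.764). Lung tumor 4 was low for the summed endothelial genes (0.812). In *CDSN* and *CDH19* (lung tumor 2), *PITX1* (lung tumor 5) and *BTN3A3* (lung tumor 4) a single lung tumor had counts and the others were at the floor, a share of 1.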

How the results depend on the processing

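The 2 genes called by edgeR were also called with RLE size factors, a stricter filter (at least 1 CPM in 2 libraries) and robust dispersion. DESeq2 called 247 (80 higher, 167 lower), limma-voom with quality weights 23 (all higher, with 1 of the 2 among them), edgeR without a filter 9 (all higher), and with all 18 tumors in the fit 9 (8 higher, 1 lower). Calls fell to 0 against the mean of the organs in the model of 4 sites, with Benjamini-Yekutieli adjustment, and without the lung, the liver or the spleen tumors. Leaving out 1 library gave 0 to 12 calls, none lower in the limb tumors, with 0 without lung tumor 1, lung tumor 2 or liver tumor 3, 12 without the leg mass tumor and 6 without the shoulder tumor. Without spleen tumor 2, *HLA-C* was called (log2FC 5.38, edgeR adjusted p = 0.0430). For single organs, DESeq2 called 242 genes against lung, 148 against liver and 273 against spleen tumors, of 20050 tested. Genes with both limb tumors outside the visceral range numbered 585 of 20050 in the main setting. They numbered 1477 of 19011 without the lung, 1108 of 19692 without the liver and 1050 of 19450 without the spleen tumors. Without 1 visceral library they numbered 647 to 877, of 19653 to 19982 tested. With the leg mass tumor left out, the shoulder tumor alone lay outside the range in 3514 of 21724 genes. With the shoulder tumor left out, the leg mass tumor did so in 2384 of 21735. Fewer visceral libraries span a narrower range, and a single limb tumor needs to meet it alone, so such counts rise by construction. Leg mass and shoulder differed by over 1.5 in 2513 of 14598 genes with the stricter filter and in 4805 of 20050 in the main setting. The cause of the other differences was not tested. The median log2FC of all genes was -0.17, and 0.00 with voom, -0.06 in the model of 4 sites and -0.31 without a filter.

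Of the list medians, hepatocyte genes were at -1.47 with voom and -2.97 to -1.67 without 1 library, lung epithelium at -2.59 with the stricter filter, 0.43 without the lung tumors and -2.28 to -0.25 without 1 library, and stress genes at -0.83 without the lung tumors and -0.64 to -0.020 without 1 library. Red cell and platelet genes were at 0.015 with the stricter filter, 0.21 without the spleen tumors and -4.85 to -0.17 without 1 library. Without 1 library antigen presentation ran from 0.27 to 1.68, histiocyte from -0.16 to 0.67, skeletal muscle from -2.06 to 0.12, skin, melanocyte and Schwann cell from -1.59 to 0.69, and connective tissue was at -0.14 without the leg mass tumor.

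None of the named genes that changed sign was called by edgeR on the 12 libraries. With voom the log2FC was 0.32 for *TNFRSF11B*, 0.30 for *APOM*, 0.17 for *GRAP2*, 0.23 for *DLA-64*, 0.78 for *DLA-DOA* and 0.98 for *PITX1*. With DESeq2 *PITX1* was at 1.42, in the model of 4 sites at 1.36, and with the stricter filter *NFATC1* at -0.0047. Without the lung tumors *NFATC1* was at -0.070, *MPIG6B* at -0.20, *PITX1* at 0.45 and *AGER* at 0.37. Without the liver tumors *TNFRSF11A* was at -0.019, *NFATC1* at -0.093, *MPIG6B* at -0.23 and *DLA-DOA* at 0.14. Without the spleen tumors *TNFRSF11A* was at -0.17 and *APOM* at 0.26. Without 1 library the log2FC ran from -0.49 to 0.26 for *APOM*, -2.61 to 3.09 for *CDH19*, -0.21 to 0.95 for *CENPM*, -0.88 to 1.25 for *CPT1B*, -0.41 to 0.045 for *DLA-64*, -0.38 to 0.38 for *DLA-DOA*, -1.32 to 3.15 for *FLT4*, -1.74 to 5.38 for *HLA-C*, -1.47 to 4.76 for *MEST*, -0.81 to 1.57 for *MMP19*, -1.17 to 0.74 for *MPIG6B*, -0.30 to 0.31 for *NFATC1*, -0.72 to 0.99 for *PDGFB*, -0.11 to 0.89 for *PIM1*, -6.31 to 1.32 for *PITX1*, -0.93 to 0.25 for *PODXL*, -1.08 to 1.43 for *SMO*, -0.91 to 4.06 for *SOX10*, -0.56 to 0.89 for *TMPRSS6*, -0.43 to 0.41 for *TNFRSF11A* and -1.45 to 2.20 for *TXLNB*.

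No paired analysis was possible because the labels give no number that ties a limb tumor to a visceral tumor. A limb library held 3 counts or fewer for *TCF21*, *PLG*, *LECT2*, *ROS1*, *BTN3A3*, *PITX1*, *DCSTAMP*, *RDH16*, *DPYS*, *FBXO43*, *SNX31*, *KCNN2*, *VGLL2*, *CDSN*, *CDH19*, *MLANA*, *KLHL38*, *LY6G6F* and *TRDN*, so their levels there are at the limit of these depths and their log2FC depends on the model.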

Other observations

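Genes with a name were also set out by chromosome, a split chosen after the genes below the visceral range were seen. Of the 1009 tested genes with a name, 961 (95.2%) have an entry of the same symbol in the RefSeq gene table of the assembly UU_Cfam_GSD_1.0, which was used only to see which genes share a chromosome. *FBXO43*, *DCSTAMP*, *NUDCD1*, *MRPL13*, *DERL1* and *TBC1D31*, 6 of the 13 genes with both limb tumors below all visceral tumors, are on the chromosome that carries *MYC*. Another 5 are on other chromosomes, and 2 have no entry. The margin was small for some of the 6. *DERL1* was at 105.1 CPM in the shoulder tumor and 105.8 CPM in lung tumor 4. *DCSTAMP* had 24 counts in the shoulder tumor and 21 in lung tumor 1, and *FBXO43* 7 counts in the leg mass tumor and 9 in lung tumor 5. The chromosome of *MYC* holds 126 of the tested genes with a name. Of these 126, 90 (71.4%) had a negative log2FC, with a median of -0.44, 7 had an unadjusted p under 0.05 with a negative log2FC and 1 with a positive one, and none was called by edgeR. Of 835 genes with a name on other chromosomes, 453 (54.3%) were negative, with a median of -0.06. Most of these 835 lie on the chromosomes of *LYZ*, *SMPDL3A*, *CANX* and *HLA-DRB1*. *TATDN1*, a nuclease gene of the same chromosome, was at 6.62 and 14.2 CPM in the limb tumors and 13.2 to 51.1 CPM in the visceral tumors (log2FC -1.34, SE 0.54).

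Per library, the median over the 92 genes of the *MYC* chromosome with a mean of at least 1 log2 CPM, relative to the mean of the 12 libraries, was -0.16 in the leg mass tumor and -0.20 in the shoulder tumor. In the visceral tumors it ran from -0.29 to 0.41 with a median of 0.07, and lung tumor 3 and spleen tumor 1 were lower than both limb tumors.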
